A study of Drosophila melanogaster with 3 samples.

Results

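Binding of CG4424, a Drosophila zinc finger protein, was examined in whole embryos at 10 genes of the ecdysone response. They are the receptor genes EcR and usp, the early genes Eip75B, Eip74EF and br, the nuclear receptor genes Eip78C, Hr39, Hr4 and ftz-f1, and Eip93F, 10 of 13945 annotated protein-coding genes. Each gene was taken with 5 kb on each side, and every binding summit inside that window was collected. Eip75B was picked for its many summits, and the list around it was chosen with results of these data known, so the counts below are descriptions without a test. The chromatin came from embryos collected 0 to 16 hours after egg laying, of both sexes together, of 1 transgenic fly line whose CG4424 protein carries a C-terminal GFP tag. It was sonicated to fragments of 200 to 800 bp and precipitated with an antibody to GFP, in 3 biological replicates of 1 technical replicate each. There is 1 group and no second condition, so binding was not compared between conditions, and whole embryos mix all cell types.

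Ecdysone is the steroid hormone of insects that drives molting and metamorphosis, and a pulse of it also occurs in mid-embryogenesis. Its active form binds a heterodimer of 2 nuclear receptors, the products of EcR and usp. This heterodimer switches on a small set of early genes named for the chromosome puffs they form. The early proteins are themselves transcription factors, several of them nuclear receptors without a known hormone, and they time later waves of genes. Binding of CG4424 says nothing of whether a gene was transcribed, and no expression was measured.

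The pooled list of the 3 replicates held 29056 regions, and its 6420 strongest, called the optimal set, passed a cut on reproducibility between replicates. Each region has 1 summit and a signal, a value given by the authors that is used here to rank regions within a list; its unit is not stated. Inside the 10 windows lay 60 of the 6420 optimal summits, and 262 of the 29056 in the whole pooled list. All 10 windows had an optimal summit, against 56.5% of protein-coding genes in windows built the same way and 74.2% of those with windows of 50 kb or more. Of the members, 7 have windows that long. The optimal summits were unevenly shared: Hr4 had 14, Eip75B 12 and ftz-f1 11, Eip74EF 6, EcR 5, Eip78C and br 3 each, and usp, Hr39 and Eip93F 2 each.

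The DNA under the strongest summits is shown first, because these windows are the places the rest of the account refers to. Each line is the plus strand of dm6 read 5′ to 3′, from the RefSeq copy of that assembly, 101 bases with the summit in the middle. For Eip75B the 3 strongest summits are shown, and for 8 other genes the strongest; no EcR window is printed. Capitals mark matches, on either strand, to any of 11 short motifs that were looked for: the half-sites of the ecdysone receptor AGGTCA and GGGTCA, the ftz-f1 site CAAGGTCA, which holds the first of these, the ETS core CCGGAA of the Eip74EF protein, the DREF and BEAF-32 palindrome TATCGATA and the BEAF-32 core CGATA inside it, the GATA site TGATAA, the GAGA element GAGAG, the homeodomain site TAATTA, the Zelda site CAGGTA and the E-box CAGCTG.
Eip75B, start of transcript RC (chr3L:17999738-17999838): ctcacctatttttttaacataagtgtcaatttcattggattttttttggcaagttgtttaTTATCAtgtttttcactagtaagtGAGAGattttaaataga
Eip75B, intron, second by signal (chr3L:18005180-18005280): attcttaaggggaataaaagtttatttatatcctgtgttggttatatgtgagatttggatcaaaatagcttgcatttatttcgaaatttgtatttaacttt
Eip75B, intron, next by signal (chr3L:18009123-18009223): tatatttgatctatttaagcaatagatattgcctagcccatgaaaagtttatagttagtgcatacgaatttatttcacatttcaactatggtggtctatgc
Hr4, intron (chrX:1947705-1947805): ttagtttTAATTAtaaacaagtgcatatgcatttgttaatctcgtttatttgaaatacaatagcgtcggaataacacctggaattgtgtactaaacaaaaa
Eip74EF, intron (chr3L:17567023-17567123): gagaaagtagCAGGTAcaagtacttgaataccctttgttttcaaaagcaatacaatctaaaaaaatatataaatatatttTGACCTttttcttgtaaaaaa
usp, start of transcript RA (chrX:2041421-2041521): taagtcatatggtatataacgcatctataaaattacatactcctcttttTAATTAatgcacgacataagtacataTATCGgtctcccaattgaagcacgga
br, beyond its end (chrX:1669329-1669429): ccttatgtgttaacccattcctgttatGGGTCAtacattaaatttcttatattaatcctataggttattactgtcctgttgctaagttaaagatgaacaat
ftz-f1, intron (chr3L:18769401-18769501): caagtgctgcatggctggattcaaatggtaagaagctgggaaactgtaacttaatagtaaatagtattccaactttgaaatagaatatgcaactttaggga
Eip78C, intron (chr3L:21253858-21253958): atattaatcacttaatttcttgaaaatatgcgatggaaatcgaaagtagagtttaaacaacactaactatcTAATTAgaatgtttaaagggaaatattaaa
Eip93F, beyond its end (chr3R:22019213-22019313): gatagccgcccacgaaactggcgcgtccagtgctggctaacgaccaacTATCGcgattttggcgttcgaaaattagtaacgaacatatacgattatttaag
Hr39, beyond its end (chr2L:21263929-21264029): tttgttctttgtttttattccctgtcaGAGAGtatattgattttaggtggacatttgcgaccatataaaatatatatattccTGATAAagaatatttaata
The printed windows are mostly rich in A and T, and motif matches are few. The strongest EcR window, of signal 694 and not printed, had 52.5% A+T, the lowest among the strongest windows of the 10 genes. In the Eip74EF window, the receptor half-site begins 30 bases to the right of the summit, read on the minus strand. The other half-site, in the window beyond br, begins 23 bases to the left. The strongest window of ftz-f1 and the other printed windows of Eip75B hold none of the 11.

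Across all 60 members' windows of 101 bp, 34 held none of the 11 motifs (56.7%), against 54.6% of all optimal windows. The half-site AGGTCA occurred in 1 of 60 windows, at Eip74EF, against 2.09% of all optimal windows. The half-site GGGTCA also occurred in 1, against 1.46%. The ftz-f1 site, the ETS core and the palindrome occurred in none of the 60, a count that allows a share of up to 5%, against 0.156%, 1.82% and 1.96% of all optimal windows. Commonest among the listed motifs were the BEAF-32 core, in 9 windows (15% against 16.4%), the GAGA element in 7 (11.7% against 9.17%) and the homeodomain site in 6 (10% against 10.4%). In windows 500 bp to either side of the members' summits, the BEAF-32 core occurred in 10.8% and the homeodomain site in 6.67%. The GAGA element occurred there in 20%, a higher share than at the summits, and around all optimal summits in 14.0%. The half-sites AGGTCA and GGGTCA and the ETS core occurred in 4, 3 and 3 of 120 windows to the sides (3.33%, 2.5% and 2.5%). These counts are too small to set against those at the summits. Around all optimal summits the shares were 2.35%, 2.49% and 3.12%. These are matches of letters in a short window and do not show which factors bind there.

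What most of the summits shared was base composition, which the choice of genes did not use. The median A+T content of the members' windows was 67.3%, and that of windows centred 500 bp to either side was 55.4%. The summit window was the richer in A and T at 45 of 60 summits. Over all optimal summits the medians were 68.3% and 55.9%, with the summit the richer at 81.8%. The 6 Eip74EF, 3 Eip78C, 3 br, 2 usp and 2 Hr39 windows all exceeded their surroundings. The 5 of EcR did so in 2 cases only, and its strongest summit lay in a window of 52.5% A+T between neighbours of 73.3%. Of the Eip75B windows 9 of 12 were richer, and the exceptions were the intron summits of signal 655, 401 and 211. At Hr4 9 of 14 were richer, at ftz-f1 8 of 11 and at Eip93F 1 of 2. Single windows ranged from 39.6%, at Hr4, to 83.2%, at ftz-f1. The 6-letter words whose share rose most at the optimal summits outside the members were AAATAT and TTAAAA. They occurred in 21 and 15 of the 60 members' windows (35% and 25%), against 34.5% and 32.8% of all optimal windows. In the windows to the sides of the members' summits the shares were 15.8% and 11.7%. These words were picked on all the other summits after the data were seen.

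**Figure D1:**
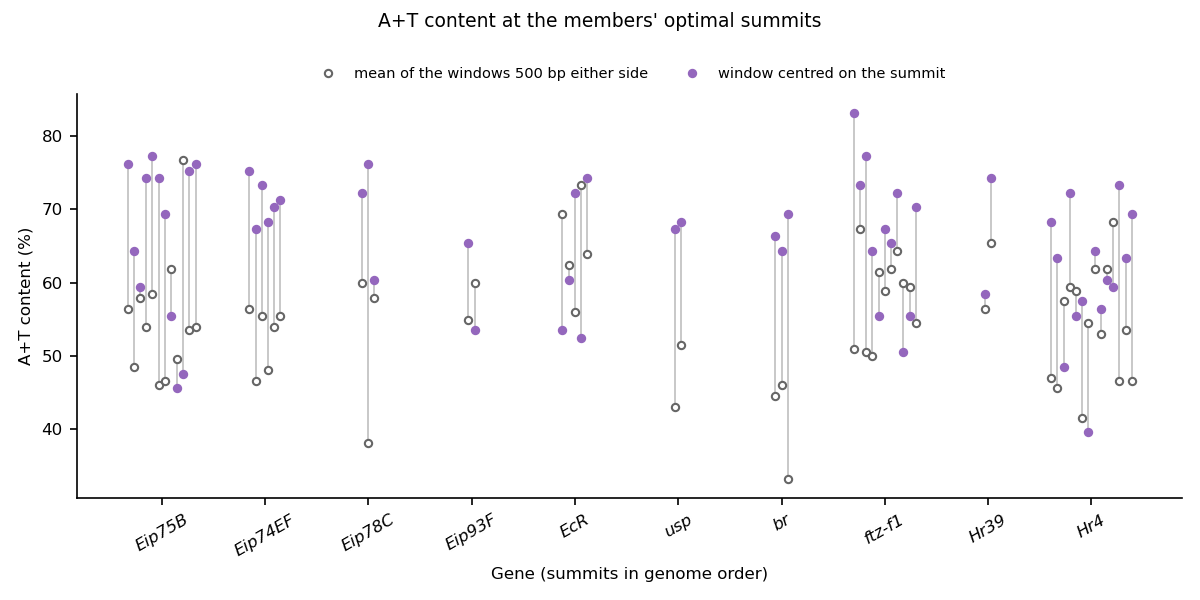
A+T content in percent (vertical axis) at each optimal summit of the 10 genes (horizontal axis): filled points are the 101-bp window on the summit, open points the mean of the windows 500 bp to either side, and a line joins the pair. The filled point is the higher at 45 of 60 summits, and at 2 of 5 for EcR.

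By position, 42 of the 60 summits lay in introns, 15 within 500 bp of a transcription start, 2 between genes and 1 in a 3′ UTR. Introns thus held 70% (exact 95% interval 56.8 to 81.2), against 35.0% of all optimal summits, and starts 25% (14.7 to 37.9), against 46.8%. These intervals cover counting error only. The members' windows are mostly intron: of positions taken every 50 bp in them, 68.6% were intronic and 11.5% within 500 bp of a start. Coding exons took 8.68% of these positions and held none of the 60 summits, a count that allows up to 5%. Of all optimal summits they held 0.296%. Of the summits at starts, 5 were at a member's own start and 10 only at starts of other genes. The signals of the intron summits had a median of 291 and those at starts 335, against 309 and 342 among all optimal summits.

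At their own starts, 4 of 10 members had an optimal summit within 500 bp, namely EcR, usp, Eip75B and Eip74EF, against 24.9% of protein-coding genes. In the whole pooled list the count was 7 of 10, with Eip78C, Hr39 and Hr4 added, against 50.5%. Of 36 annotated starts in the 10 genes, 5 had an optimal summit within 500 bp and 12 a summit of any rank in the pooled list. Some of these starts lie close together, and the share of starts over all genes was not computed. A gene with several starts has more places to be counted, and the shares of 24.9% and 50.5% were not matched for this. No start of br, ftz-f1 or Eip93F had a summit within 500 bp in either list. A count of 4 genes is small, and it fell to 2 with a start window of 250 bp and rose to 5 with 1000 bp, where ftz-f1 entered through a summit 596 bp upstream. It was also 2 when a region had to be among the 6420 strongest of both replicates 2 and 3, or of both 1 and 2, and 3 for replicates 1 and 3.

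EcR, which encodes the hormone-binding receptor, lies on 2R from 6087873 to 6169087 on the minus strand (FBgn0000546) and has 4 starts and 6 transcripts. Its strongest summit had signal 694 and lay in an intron, 5.85 kb into the gene from the nearest EcR start. That summit ranked 342nd in replicate 1, 1300th in replicate 2 and 1468th in replicate 3, so replicate 1 placed it well above the others. The start shared by transcripts RD and RE had a summit 297 bp upstream, of signal 226, with ranks of 4522, 7381 and 3247 in replicates 1, 2 and 3. The start of RA had a weaker region 281 bp downstream, of signal 141, and that of RB and RC one at 31 bp, of signal 73.6, neither in the optimal set. Another 2 intron summits of signal 267 and 206 lay 2.72 and 1.53 kb upstream of the RB and RC start, and the fifth, of signal 274, was 142 bp upstream of a start of the neighbouring gene Ars2. EcR had 53 summits in the pooled list, and 9.43% of them were optimal. The strongest region left out of the optimal set at any of the 10 genes was also here, with signal 181, just under the lowest optimal signal of 186.

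The partner gene usp, the fly retinoid X receptor, is the smallest of the 10 at 3.51 kb (X from 2038798 to 2042311, minus strand, FBgn0003964). Both of its starts carried a summit. The start of RA had signal 548 at 159 bp upstream, with ranks of 928, 1546 and 1814 in the replicates, and the start of RB had 297 at 144 bp upstream, with 3616, 3267 and 4466. All 3 replicates placed both among their 6420 strongest regions. The RB summit is also within 500 bp of a start of Actn, and the RA summit of one of CG4313, so both are shared with neighbours. It was the only member with an optimal summit at every start.

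Eip75B encodes a nuclear receptor that binds heme and is among the first genes to answer the hormone. It spans 113.7 kb of 3L, from 17950953 to 18064696 on the minus strand (FBgn0000568), with 7 transcripts that each begin at a start of their own. Its strongest summit was 33 bp inside the start of RC, with signal 1072, 374th of the optimal set. In the replicates it ranked 757th, 290th and 367th, the highest ranks at this gene in every replicate. None of the other 6 starts had an optimal summit within 500 bp. At RA only a weak region of signal 66.3 was near, 288 bp downstream, while the start of RF, the most upstream, had one of signal 226 at 547 bp upstream. The starts of RD, RG, RB and RE lay 16.8, 3.78, 3.60 and 1.74 kb from their nearest optimal summit.

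The other strong Eip75B summits were intronic and flanked the RC start. Those of signal 787 and 698 lay 5.41 and 9.35 kb upstream of it, and one of 655 was 6.22 kb inside the start of RG. A summit of 511 lay 11.5 kb downstream of the RC start, and one of 401 was 3.78 kb upstream of the RG start. One intron of 32.3 kb held 5 of the 12 summits besides the strongest. The strongest, counted at the RC start, also lay in that intron in 4 transcripts. Another intron, of 23.4 kb, held 3. The weakest of the 12, of signal 189, lay 1501 bp inside the start of RF. Neighbouring summits were 1.74 to 33.4 kb apart, with a median of 3.94 kb. No summit in this window was at a start of another gene. Counted in each replicate's 6420 strongest regions, the window held 10, 9 and 11 summits (10 ± 1, SD, n = 3). Of the 58 summits in the pooled list, 46 were beyond the optimal set, with signal up to 155, and 14 of these had a counterpart in all 3 replicates. Among the 46, 3 regions overlapped an optimal one, and without them the count with a counterpart in all 3 was 11 of 43.

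The count at Eip75B was high but not the highest. Of all protein-coding genes 14 had more summits in their window and 5 others as many. The 5 with the most were kirre with 28, CG1677 with 21, ush with 16, and sbb and shn with 15, a count that tara and tna shared. Per 10 kb of window, Eip75B had 0.970 summits, less than the 1.84 of Hr4, the 1.81 of ftz-f1 and the 1.48 of usp. The median was 0.733 over the 10 members, 0.609 over protein-coding genes and 0.295 over those with windows of 50 kb or more. Counts of 10 or more occurred in 3 of 7 members with such windows, and in 6.72% of the 461 genes with such windows. Eip75B is 1 of these 3 and was picked on its count.

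**Figure D2:**
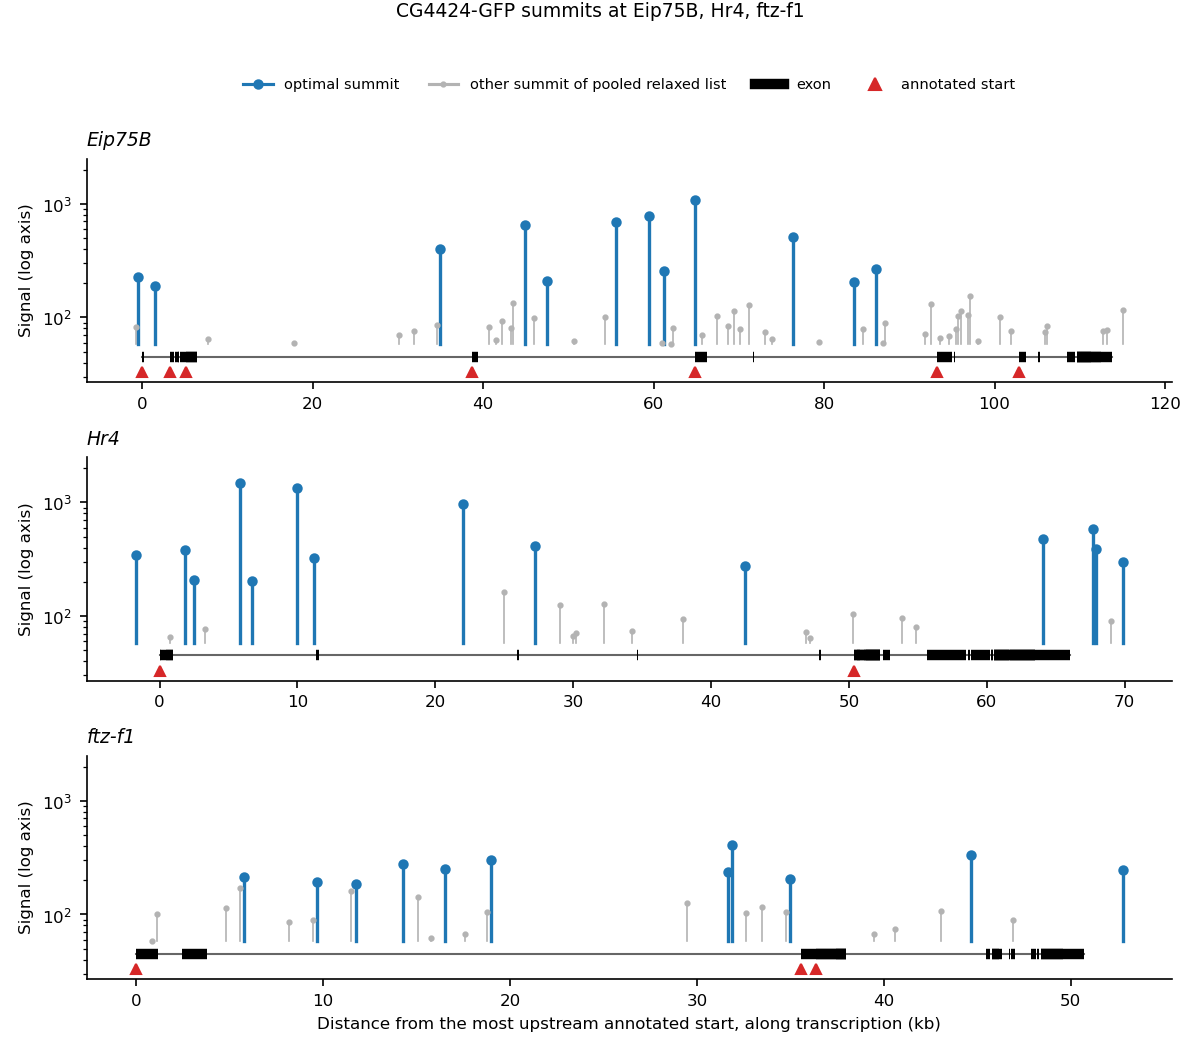
Signal of each summit (vertical log axis) along Eip75B, Hr4 and ftz-f1, by distance in kb from the most upstream start in the direction of transcription; blue stems are optimal summits, grey ones other summits of the pooled list, black boxes exons and red triangles starts. The strongest Eip75B stem, of signal 1072, stands at a start, whereas those of Hr4, up to 1491, stand in introns.

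Eip74EF encodes an ETS-domain transcription factor and lies on 3L from 17558672 to 17619325, minus strand (FBgn0000567). Its 6 summits were led by one of signal 617 in an intron near the 3′ end, common to all 5 transcripts and 9.25 kb inside the start of RD. It ranked 1077th, 948th and 1549th in the replicates. A pair in the first intron of the long transcripts, of signal 482 and 462, lay 206 bp apart, 7.98 and 7.77 kb inside the start of RA, RC and RE. The same regions of each replicate overlapped both, so the replicates do not resolve the pair. An intron summit of 230 lay 2.56 kb away from it. The start of RA, RC and RE had a summit of signal 194 at 260 bp upstream, which ranked 12989th, 7217th and 5158th and so was among the 6420 strongest of replicate 3 only. A further summit, of 385, was 8 bp inside a start of the neighbour Vps60.

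The broad gene br, which encodes a family of BTB zinc finger proteins by alternative splicing, has 9 starts and 16 transcripts over 89.7 kb (X from 1575132 to 1664869, plus strand, FBgn0283451). It had 3 optimal summits and only 10 in the whole pooled list. None lay near a br start: the closest, of signal 422, was 3.41 kb upstream of the start of RS. That summit ranked 2688th, 2222nd and 1934th, and lay in an intron of 14 of the 16 transcripts. A second intron summit, of 287, was 24.5 kb inside the last start. The strongest, of 481, was beyond the end of br and 82 bp upstream of a start of CG3740, with hfw also within 500 bp. All 3 summits were among the 6420 strongest regions of each replicate (3 ± 0, SD, n = 3).

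Hr4, a nuclear receptor that in larvae restrains ecdysone production, had the most summits in its window and the strongest of the 10 genes (X from 1941940 to 2007956, plus strand, FBgn0264562). Within the gene itself Eip75B had 11 optimal summits, and ftz-f1 and Hr4 10 each. The other Hr4 summits lay in the flanks, 1 upstream of the gene and 3 beyond its end. Summits of signal 1491, 1340 and 974 lay in introns 5.82, 9.96 and 22.0 kb inside its upstream start. They ranked 198th, 265th and 386th in replicate 1, 151st, 192nd and 466th in replicate 2, and 185th, 239th and 519th in replicate 3, so their order was the same in each. One intron of 10.4 kb held 6 of the 14 summits, from 205 to 1491. Next by signal was a summit of 588 beyond the gene's end, 287 bp upstream of lncRNA:CR45478 and near a start of PIG-K, followed by one of 479.8 in the 3′ UTR of Hr4 and one of 411 in an intron. The summit of 588 has a companion 200 bp away, of 389, and both overlap the same region in each replicate. No optimal summit was within 500 bp of either Hr4 start; a region of signal 105 outside the optimal set lay 58 bp upstream of the start of RE and RF. The lowest of the 14 had signal 205, and one of 206 ranked 5317th and 2791st in replicates 1 and 2 but 25780th in replicate 3. The window held 12, 13 and 14 summits of the replicates' strongest regions (13 ± 1, SD, n = 3).

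In ftz-f1, a nuclear receptor of the prepupal response whose long form also acts in early embryonic segmentation, 9 of 11 summits fell in a single intron of 33.7 kb (3L from 18750607 to 18801309, minus strand, FBgn0001078). That intron is one of transcript RB alone, and all 9 lie upstream of the starts of RC, RD and RA. The signals were moderate, from 186 to 409, with a median of 245. The strongest, of 409, was 3.71 kb upstream of the start of RC and RD and ranked 2628th, 1862nd and 2427th. A second summit of 236 lay 206 bp from it under the same replicate regions. The nearest to a start, of signal 206, was 596 bp upstream of RC and RD, and it ranked 9617th in replicate 1 but 5107th and 4350th in the others. Next by signal came 335 in an intron of all 4 transcripts, then 299, 277, 251 and, 141 bp upstream of Atg3 and near a start of Nufip, 245. The lowest was the last region of the whole optimal set, of signal 186, among the 6420 strongest only in replicate 1. The window held 8, 9 and 10 summits of the replicates' strongest regions (9 ± 1, SD, n = 3).

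Eip78C, Hr39 and Eip93F had few summits and none at their own starts. Eip78C, a nuclear receptor gene of the early-late class (3L from 21226609 to 21266503, plus strand, FBgn0004865), had intron summits of signal 372 and 217, 13.6 and 19.1 kb inside the start of RB. Its last summit, of 194, lay 3.15 kb upstream of the first start. Only the summit of 372 was among the 6420 strongest in all 3 replicates, at ranks 3577, 3006 and 1938. Hr39, a nuclear receptor gene related to ftz-f1 (2L from 21237250 to 21259675, plus strand, FBgn0261239), was the only member with no optimal summit in the gene itself. Its summits of 264 and 216 lay beyond its end, one at the microRNA gene mir-4974 and unnamed small RNA entries next to it, the other 165 bp upstream of l(2)k14505, and neither was among the 6420 strongest regions of replicate 3. At its single start, 102 bp inside, was a region of signal 173 that just missed the optimal set and ranked 7643rd, 7837th and 4922nd. Eip93F, whose product marks the switch to adult fates and cell death in late metamorphosis (3R from 21949114 to 22014539, plus strand, FBgn0264490), had an intron summit of 187 at 20.7 kb inside the start of RA and RC. The other, of 335, was 79 bp upstream of Idh3b, and the gene had 6 summits in the whole pooled list, the fewest of the 10.

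**Figure D3:**
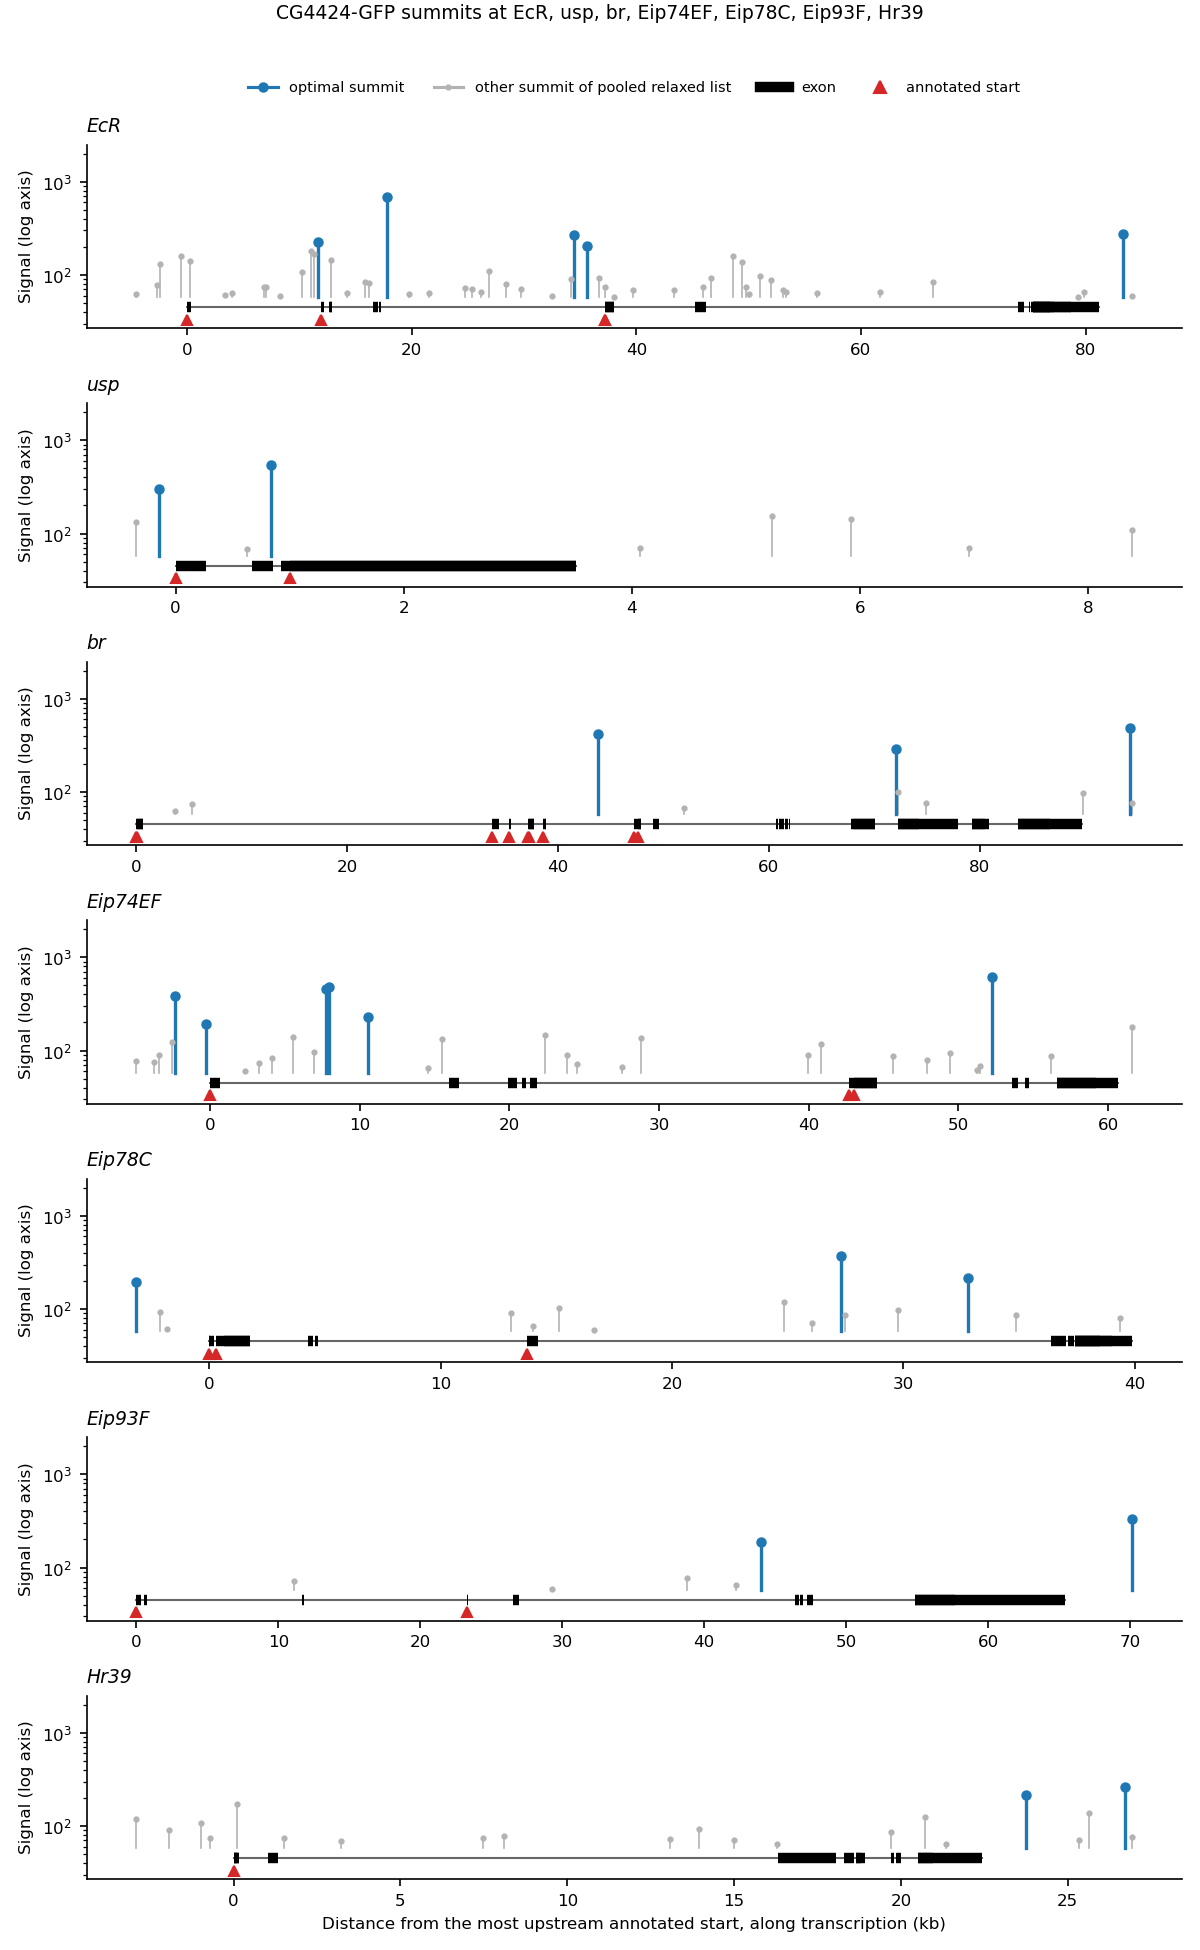
Signal of each summit (vertical log axis) along the other 7 genes, by distance in kb from the most upstream start in the direction of transcription, with the same symbols. Both usp starts have a blue stem, while the 9 br starts and the single Hr39 start have none.

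Support by the replicates followed the signal. Much of this is by construction, because the pooled list comes from the same 3 replicates and the optimal set passed a cut on reproducibility. Each of the 60 had an overlapping region in replicate 1, replicate 2 and replicate 3. Set against the 6420 strongest of each, 86.7%, 85% and 86.7% of them were overlapped (86.1% ± 0.962, SD, n = 3), against 89.8% ± 1.90 for all optimal regions. The share overlapped in all 3 was 41 of 60 (68.3%, interval 55.0 to 79.7), against 76.2% of the whole optimal set. These 41 had signals from 230 to 1491. The 13 found in the strongest regions of exactly 2 replicates ranged from 187 to 264, and the 6 found in those of 1 replicate, at Eip74EF, Eip75B, Hr4 and ftz-f1, from 186 to 211. Spearman's rho between the replicates' ranks over the 60 summits was 0.83, 0.78 and 0.77 for the 3 pairs of replicates, a description of sites that share libraries and were chosen on the pooled signal. Beyond the optimal set, 77 of 202 pooled regions at the 10 genes overlapped a region in all 3 lists (38.1%), against 40.8% of all 22636 such regions. Of the 202, 17 overlapped an optimal region, and all 17 had a counterpart in all 3 lists. Without such regions the shares were 60 of 185 (32.4%) and 37.1%.

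**Figure D4:**
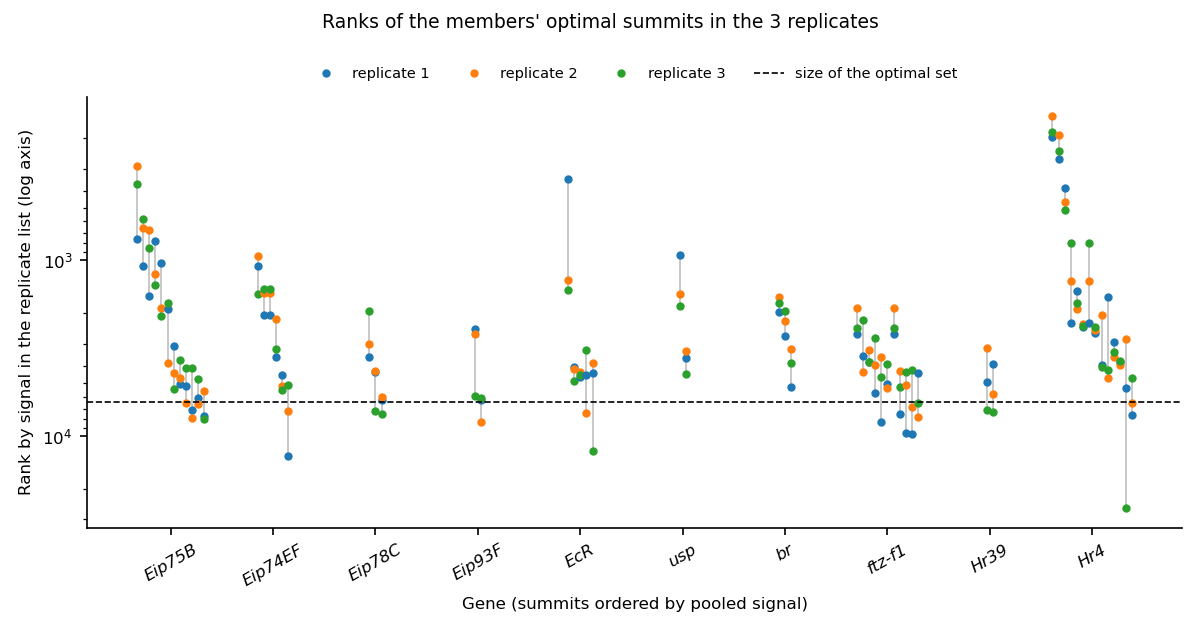
Rank by signal (vertical log axis, strongest at the top) of the region overlapping each of the 60 optimal summits in replicates 1, 2 and 3, by gene, with the summits of a gene ordered by pooled signal; the dashed line is rank 6420. The 3 strongest Hr4 summits rank between 151 and 519 in each replicate, and 41 of the 60 columns lie wholly above the line.

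**Figure D5:**
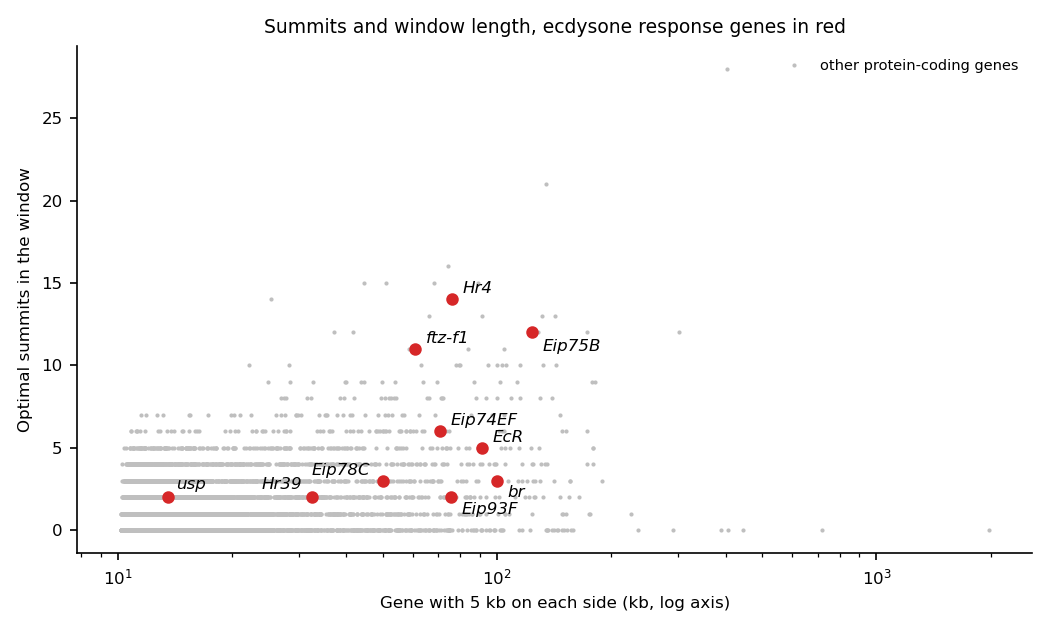
Optimal summits per window (vertical axis) against window length in kb (horizontal log axis) for all protein-coding genes, with the 10 ecdysone response genes in red. Hr4 with 14, Eip75B with 12 and ftz-f1 with 11 stand above the other members, while br with 3 and Eip93F with 2 have windows of 99.7 and 75.4 kb.

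Other genes of the pathway, 86 in 6 lists, showed no common picture; all were found in the annotation, 6 of them under another symbol. An optimal summit in the window was found for 47 (54.7%, against the 56.5% above) and at an own start for 16 (18.6%, against 24.9%). Of 16 genes listed for ecdysteroid synthesis and breakdown, with regulators and sterol transport genes included, 6 had one in the window. Only Npc1a, a sterol transporter gene, had one at an own start. Highest in that list were sad with 672, Ptth with 671 and shd with 319, the first and second at starts of neighbours. All 3 genes of hormone transport had summits, with 1809 at 273 bp upstream of E23, an ABC transporter gene, 753 near Atet and 548 just inside the ecdysone importer gene, annotated as Oatp74D.

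Of the receptor's coregulators 9 of 10 had a summit and 4 had one at a start. Over protein-coding genes, the shares to set beside these and the other lists were 56.5% and 24.9%. The highest were gce, a juvenile hormone receptor gene, with 1400 at the start of an antisense RNA 503 bp upstream, Smr, a corepressor gene, with 1125 in an intron, and tai, a coactivator gene, with 733 at 206 bp upstream of its start. The tai summit is also within 500 bp of a start of CG9586. Of the other nuclear receptors 11 of 14 had a summit and 5 had one at a start, led by Hr3 with 2238 in an intron, Hr96 with 1127 at its start and Hnf4 with 772 at its start. The Hr96 summit is also within 500 bp of a start of EMC6. Of 22 other response genes 16 had a summit and 4 had one at a start, led by hid with 1913, MsrA, listed as Eip71CD, with 1441 at a neighbour's start, and ImpL2 with 1277. Of 21 salivary glue and late puff genes only Sgs4 and Sgs1 had one, of 1358 and 1167, both at starts of other genes. The windows of the last list are short, with a median of 10.6 kb. Windows of neighbouring genes can overlap, so the genes of a list are not all separate places.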

How the data were processed

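The data are ChIP-seq of CG4424-GFP in embryos, 3 biological replicates. The authors deposited lists of regions on dm6 with a signal value per region and a summit offset, 1 list per replicate, made from its alignment and a control alignment, and a relaxed and an optimal list from all 3 replicates pooled with the control, per the notes deposited with the samples; the aligner and caller: not given in the sources used here. The optimal list was thresholded on the irreproducible discovery rate, and its 6420 regions are the strongest of the relaxed list by signal. The replicate lists held 22198, 30000 and 29796 regions, and the second ends at a round number. Read depth is unknown from these files, and signal was compared within a list only. The dm3 versions were not used.

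Gene models came from Ensembl release 115 on the same assembly, and bases from RefSeq. A summit is the region's start plus its offset, written counting from 1. Summits lying 500 bp or less from any start were called promoter, otherwise 5′ UTR, coding exon, 3′ UTR, noncoding exon, intron and intergenic in this order. Minimum overlap between regions was 1 bp. Intervals are Clopper-Pearson at 95%, from scipy 1.17.1 under Python 3.11.15, and a count of 0 was given the limit of 3 counts. Counting and overlap were checked on planted summits. The members, gene lists and motifs were chosen with earlier results of these data known. All 10 members are described. Where a gene had more than 8 optimal summits, the 6 of highest signal, those at its starts and the lowest are given. From each pathway list the 3 genes of highest signal are named, with Npc1a named after its value was seen. Nothing was tested, since the design has 1 group and the genes were chosen on their summits. Alternatives were the 3210 strongest optimal regions, other flanks, other start windows, the relaxed list and leaving out each replicate.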

Additional observations from a re-analysis of the deposited data

How the results depend on the processing

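With the 3210 strongest of the optimal regions, the members had 28 summits, Eip75B 6, and 2 members had a summit at an own start, while the share overlapped by the replicates' strongest regions rose to 100%. With the pooled relaxed list these counts were 262, 58 and 7, by its construction as the longer list. A start window of 250 bp left 2 members with a summit at an own start. Counting gene bodies alone put 91.1% of summits in introns, because the flanks that hold neighbours' starts are removed; against whole replicate lists all regions were overlapped (100%). Requiring the strongest regions of the other replicates, leaving out each replicate in turn, gave 44 to 47 summits, 8 to 10 at Eip75B, 2 to 3 members with a summit at an own start (2 without replicate 1 or without replicate 3), 68.1% to 72.7% in introns and a mean overlap of 85.8% to 86.7%. Of 38 alternatives in all, 26 left counts within 1.5 times and shares within their spread or interval.

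Read depth is unknown, regions close together share replicate regions, and 10 of 60 summits lie only at starts of neighbouring genes. No paired analysis was possible because there is 1 group.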
